A study of Mus musculus with 48 samples.

Results

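The 10 genes described here are Fgf21, Gdf15, Trib3, Ddit3, Atf3, Atf4, Atf5, Asns, Chac1 and Sesn2, through which the integrated stress response is commonly read in RNA. They were taken by symbol from tables of mouse RNA-seq, with 1 line kept for each Ensembl gene, and they are 10 of the 15541 genes listed in at least 1 of the 6 tissue tables. The genes were chosen by their measured CPM in the RYGB and sham libraries of these tables, with the differences between the surgical groups already known, so those differences are given as a description of the libraries and carry no p-value.

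The mice were male, diet-induced obese C57Bl6 animals raised on a high fat diet that had Roux-en-Y gastric bypass (RYGB) or a sham operation. In RYGB, food passes from a small gastric pouch directly into the jejunum and skips most of the stomach and the duodenum. Both groups then received a liquid elemental diet for 9 days, and the labels also name a return to the high fat diet. The mice were fasted and killed at 10 in the morning, and bulk RNA was sequenced from liver, subcutaneous white adipose tissue (WAT), gastrocnemius muscle, and villi scraped from duodenum, jejunum and ileum. Of the 48 libraries, liver, WAT and muscle contributed 4 per surgical group, ileum 5 per group, and duodenum and jejunum 3 after RYGB and 4 after sham surgery. The shams carried the same diet and fast as the RYGB mice, no unoperated or weight-matched group was analysed here, and the labels number the libraries without stating that each came from a separate mouse.

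The integrated stress response starts when kinases that sense a lack of amino acids, unfolded protein in the endoplasmic reticulum (ER), double-stranded RNA or a lack of heme phosphorylate the translation factor eIF2. Most protein synthesis then slows while the mRNA of the transcription factor ATF4 is translated more, so that ATF4 is controlled largely at the level of translation and its mRNA is an incomplete measure of its activity. ATF4 and partners of the C/EBP family bind C/EBP-ATF response elements (CARE) at genes for amino acid synthesis and uptake, at the genes of further transcription factors, and at Fgf21, which encodes a hormone that the liver releases in fasting and on a low-protein diet.

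The promoters of the members show letters of that element near some starts, and the windows that hold them are printed. The 250 bases before each RefSeq transcription start (GRCm38.p6) were searched on both strands for TGATGNAA, the CARE consensus, and for the cyclic AMP response element TGACGTCA. All 10 members had at least 1 window, 12 windows in all, and 4 of the 10 members, Fgf21, Asns, Atf3 and Chac1, held the CARE letters. Among all 32851 windows 3.45% held them, and 3.91% of 27025 genes had at least 1 such window. Of 28 other ATF4 target genes with a window, from the list described below, 6 held them. None of the 10 members held TGACGTCA, which was found in 1.55% of all windows. Each sequence is written 5′ to 3′ on the strand of its gene and ends at the base before the transcription start, with the CARE letters in capitals.
Fgf21, chr7:45615491-45615740, minus strand: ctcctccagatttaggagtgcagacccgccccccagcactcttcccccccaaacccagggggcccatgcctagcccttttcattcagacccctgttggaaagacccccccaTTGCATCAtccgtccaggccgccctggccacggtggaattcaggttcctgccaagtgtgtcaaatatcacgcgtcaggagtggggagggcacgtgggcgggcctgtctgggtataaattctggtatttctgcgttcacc
Asns, chr6:7693210-7693459, minus strand: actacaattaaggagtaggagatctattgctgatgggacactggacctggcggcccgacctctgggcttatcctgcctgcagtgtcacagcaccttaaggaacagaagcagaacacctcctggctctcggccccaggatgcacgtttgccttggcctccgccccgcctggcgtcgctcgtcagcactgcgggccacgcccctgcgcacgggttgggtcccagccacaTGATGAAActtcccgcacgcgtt
Atf3, chr1:191183334-191183583, minus strand: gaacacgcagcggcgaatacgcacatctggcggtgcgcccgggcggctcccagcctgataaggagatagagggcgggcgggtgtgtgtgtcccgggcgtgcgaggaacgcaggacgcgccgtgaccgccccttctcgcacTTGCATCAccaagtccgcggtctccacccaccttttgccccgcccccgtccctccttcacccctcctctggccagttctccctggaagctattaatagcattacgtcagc
Chac1, chr2:119350992-119351241, plus strand: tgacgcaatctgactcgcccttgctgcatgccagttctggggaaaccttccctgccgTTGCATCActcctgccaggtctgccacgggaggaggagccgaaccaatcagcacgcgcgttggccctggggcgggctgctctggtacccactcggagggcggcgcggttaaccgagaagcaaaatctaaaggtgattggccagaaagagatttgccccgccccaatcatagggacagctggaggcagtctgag
In Asns the element read TGATGAAA on the gene's own strand and lay 23 to 16 bases before the start. In Fgf21, Atf3 and Chac1 it lay on the opposite strand, where it reads TGATGCAA, at 139 to 132, 110 to 103 and 193 to 186 bases before the start. These matches are letters in a window and not evidence of binding in these tissues. Bases outside the windows were not searched, so a member without a match may hold the element elsewhere.

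The deposited values were CPM, reads per gene scaled to the library's total, rounded to 0.1, so read depth was unknown and no counting interval could be given. After repeated lines were removed, the columns summed to between 925122 and 998777. The tables list only genes that reached 1 CPM in several libraries, and a member that is missing from a table has no value there. Of the 10 members, 7 were listed in all 6 tables. Fgf21 was listed in the liver table only, Gdf15 in liver and WAT, and Chac1 in liver, WAT and muscle, which gave 48 pairs of gene and tissue. All 48 pairs passed the filter of a mean of at least 1 CPM, which a gene could do through 1 group alone. Fgf21 did so through the RYGB livers, since its sham livers averaged 0.875 CPM, below the filter. The defining markers of each labelled tissue were listed in its own table, 10 of 10 for hepatocytes and 9 of 9 each for adipocytes, skeletal muscle and small intestinal epithelium.

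Some libraries and groups stood apart in their cell markers, and the values bear on the results that follow. In bulk tissue, fewer cells of a type and less RNA per cell cannot be told apart. All 10 B cell and all 10 T cell markers were called higher in WAT after RYGB, with summed levels of 1130 to 3050 CPM against 14.2 to 27.0 CPM for B cells and 339 to 1340 CPM against 14.6 to 26.3 CPM for T cells. In the same tissue 6 of 9 listed macrophage markers were called lower, and their sum was 571 to 1330 CPM after RYGB and 1800 to 2870 CPM after sham surgery. Of 9 keratinocyte markers 5 were listed in WAT and 3 were called lower, with sums of 138.5, 68.5, 188.6 and 6.1 CPM in sham replicates 1 to 4 and 6.1 to 8.7 CPM after RYGB. In liver, 4 of 7 listed neutrophil markers were called higher, with a sum of 41.0 to 595 CPM against 12.9 to 20.6 CPM. Liver RYGB replicate 2 held that highest neutrophil sum, 595 CPM, and also the highest macrophage sum, 1184 CPM. In the jejunum the epithelial sum was 24200 to 46200 CPM after RYGB and 53400 to 78700 CPM after sham surgery. Of the 6 listed T cell markers there, 4 were called lower, with a sum of 6.4 to 11.4 CPM against 23.2 to 42.8 CPM. In the ileum 3 of 5 listed T cell markers were called lower (3.9 to 11.0 against 14.1 to 35.8 CPM), and the sum of the 3 listed macrophage markers, 1 of them called lower, was 171 to 198 CPM against 240 to 389 CPM. In the duodenum, the only listed acinar marker of 10 reached 4817 CPM in sham replicate 2 and 1979 CPM in sham replicate 1, against 7.1 and 9.8 CPM in the other sham libraries.

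A gene was called in a tissue when limma gave an adjusted p under 0.05 over all genes of that tissue and a fold change of at least 1.5. Of the 48 pairs, 6 were called, and they came from 4 genes, Fgf21, Atf3, Trib3 and Asns. In liver 3 of 10 members were called higher and none lower, where 5.79% of all 11807 tested genes were called higher and 1.29% lower. In WAT 2 of 9 members were called lower and none higher, with 9.23% of all 13379 genes lower and 14.9% higher. In the jejunum 1 of 7 members was called higher and none lower, with 4.62% of all genes higher and 5.13% lower. No member was called in muscle, where 0.0% of genes were called, in the duodenum, where 0.00922% were called, or in the ileum, where 1.64% were called higher and 4.42% lower.

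The median log2 fold change of the members was 0.80 in liver, where all 10 were above 0, against 0.13 over all genes. It was −0.45 in WAT, where 1 of 9 was above 0, against 0.11 over all genes. In the jejunum it was 0.49 against −0.04, in muscle 0.28 against 0.05, in the duodenum −0.03 against 0.12, and in the ileum −0.08 against −0.09. The RYGB and sham libraries did not overlap for 4 members in liver (16.4% of all genes), 2 in WAT (41.2%), 2 in jejunum (22.2%), 1 in muscle (7.4%), 1 in duodenum (15.6%) and 1 in ileum (9.34%). The WAT count was thus a smaller share of the members than of all genes.

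**Figure D1:**
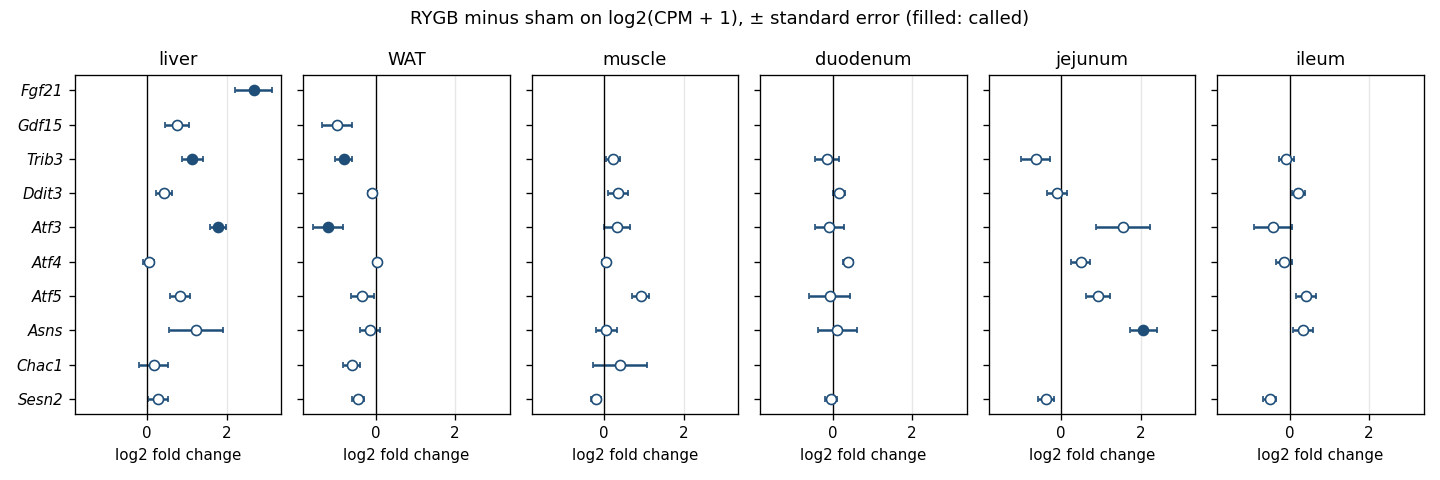
Log2 fold change of each member, RYGB minus sham on log2(CPM + 1), by tissue, with horizontal bars of ± 1 standard error and filled points for called genes. The 6 filled points are Fgf21, Trib3 and Atf3 to the right of 0 in liver, Trib3 and Atf3 to the left of 0 in WAT, and Asns to the right of 0 in jejunum, and a member without a point was not listed in that tissue's table.

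Fgf21 (ENSMUSG00000030827; GRCm38 chr7:45613886-45615490, minus strand), the fasting hormone of the liver, had the largest fold change among the members. In the RYGB livers it stood at 4.8, 10.2, 36.9 and 7.3 CPM in replicates 1 to 4, and in the sham livers at 1.2, 0.7, 0.6 and 1.0 CPM. The lowest RYGB liver exceeded the highest sham liver, and RYGB replicate 3 lay far above the other RYGB libraries. The means were 14.8 ± 14.9 CPM (SD, n = 4) after RYGB and 0.875 ± 0.275 CPM (SD, n = 4) after sham surgery, a ratio of 16.9. On the log2(CPM + 1) scale the difference was 2.68 ± 0.46 (SE), or 6.43-fold, a scale that understates the change of a gene near 1 CPM. Without RYGB replicate 3 the difference was 2.13, and Fgf21 was called in each of the 8 fits that left out 1 library. Per kb of exon, Fgf21 stood at 0.92 CPM in sham livers and 15.6 CPM in RYGB livers. The promoter window printed above with the CARE letters belongs to this gene. In sham livers this mean was the lowest of the 10 members, close to that of Atf3, and in RYGB livers the third highest, below Atf5 and Atf4.

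Gdf15 (ENSMUSG00000038508; chr8:70629393-70632456, minus strand) encodes a stress hormone that acts on a receptor in the hindbrain to lower food intake. In liver it stood at 4.3, 6.1, 9.5 and 7.2 CPM after RYGB and at 2.7, 2.0, 7.0 and 3.5 CPM after sham surgery. Sham replicate 3 lay within the RYGB range, so the groups overlapped. The log2 difference was 0.75 ± 0.30 (SE), which was not called, and without sham replicate 3 it was 1.03 and called. In WAT the values were 1.0, 2.5, 0.9 and 1.5 CPM after RYGB and 1.2, 3.6, 6.0 and 5.8 CPM after sham surgery. Sham replicate 1 lay among the RYGB libraries, and the log2 difference of −0.96 ± 0.38 (SE) was not called. Without sham replicate 1 it was −1.33 and Gdf15 was called.

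The pattern of Gdf15 over the 4 group means of liver and WAT was closest to that of Emc7, Akr1a1, Gm21967, Zhx3 and C1galt1c1, with Pearson's r from 0.9965 to 1.0 after rounding. Of 11233 genes listed in both tables, 142 had r above 0.9 over these 4 means. Fgf21, with 2 group means from 1 table, allowed no such ranking.

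**Figure D2:**
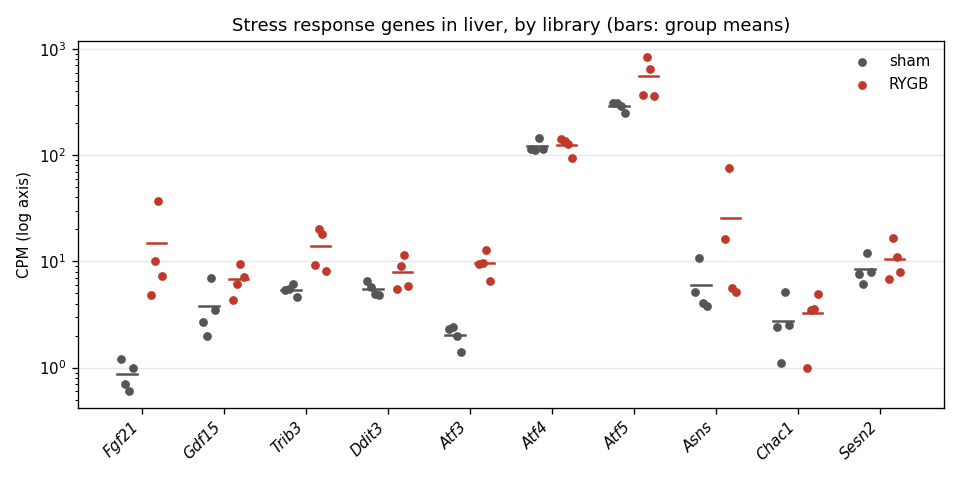
CPM of the 10 members in each liver library on a log axis, sham in grey and RYGB in red, with a bar at each group mean. The 4 RYGB points lie wholly above the 4 sham points for Fgf21, Trib3, Atf3 and Atf5, while Atf4 sits near 100 CPM in both groups, with means of 125 and 121 CPM.

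Atf4 (ENSMUSG00000042406; chr15:80255184-80257541) is the effector of the response. Its mRNA was abundant in every tissue, with sham means from 112 CPM in duodenum to 156 CPM in ileum, and every pair of neighbours in that order overlapped in range. In liver it stood at 142.4, 134.8, 127.0 and 95.0 CPM after RYGB and at 115.5, 111.1, 144.1 and 113.5 CPM after sham surgery. The liver difference was 0.04 ± 0.14 (SE) on the log2 scale, and in WAT it was 0.04 ± 0.09 (SE). In muscle it was 0.06 ± 0.10 (SE) and in ileum −0.13 ± 0.20 (SE). In the duodenum the libraries stood at 149.5, 129.2 and 164.7 CPM after RYGB and at 109.4, 116.9, 103.8 and 118.0 CPM after sham surgery. There the groups did not overlap, with a log2 difference of 0.39 ± 0.13 (SE), which was not called. In the jejunum the RYGB libraries held 125.3, 174.4 and 194.2 CPM and the sham libraries 92.7, 97.0, 113.7 and 171.9 CPM. Sham replicate 4 lay within the RYGB range, and the difference of 0.49 ± 0.25 (SE) was not called.

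Atf5 (ENSMUSG00000038539; chr7:44812256-44816658) encodes a relative of ATF4 that is itself translated more under stress and is linked to the mitochondrial stress response. It was the member with the widest range between tissues, with sham means of 290 CPM in liver, 112 CPM in WAT, 35.2 CPM in muscle and 3.90 to 7.53 CPM in the gut segments. Liver, WAT and muscle each stood apart from the next tissue in this order, and the gut segments overlapped with each other. In liver Atf5 stood at 366.9, 834.7, 648.1 and 359.4 CPM after RYGB and at 308.6, 308.4, 291.0 and 251.1 CPM after sham surgery. All RYGB livers lay above all sham livers, replicates 2 and 3 by the most. The difference was 0.84 ± 0.25 (SE) and was not called, but it was called without RYGB replicate 1 (1.00) and without RYGB replicate 4 (1.01).

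In muscle Atf5 stood at 53.8, 78.9, 74.7 and 57.9 CPM after RYGB and at 23.9, 29.4, 45.6 and 42.1 CPM after sham surgery. This was the only member whose muscle groups did not overlap, and the difference of 0.92 ± 0.21 (SE) was not called, in a tissue where no gene was. In the jejunum the values were 5.2, 10.9 and 10.3 CPM against 2.4, 4.9, 4.1 and 4.8 CPM. The groups again did not overlap, and the difference was 0.93 ± 0.30 (SE), not called, but it was 1.23 and called without RYGB replicate 1. In WAT (−0.33 ± 0.28), duodenum (−0.07 ± 0.52) and ileum (0.41 ± 0.25) the log2 difference was less than 2 standard errors from 0. Atf5 overlaps Nup62 and Il4i1 on the opposite strand, and Ddit3 overlaps Mars. The library kit was stranded, and whether counting used the strand is not given in the sources used here.

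Atf3 (ENSMUSG00000026628; chr1:191170296-191218039) encodes a transcription factor that many stresses induce, ATF4 being 1 of several regulators. The promoter window printed above lies inside this span, which is from GENCODE and extends far past the RefSeq start used there. Atf3 was called in opposite directions in liver and WAT. In liver the values were 9.5, 9.6, 12.9 and 6.5 CPM after RYGB and 2.3, 2.4, 2.0 and 1.4 CPM after sham surgery. The groups lay far apart, with means of 9.62 ± 2.61 and 2.02 ± 0.450 CPM (SD, n = 4 each), a log2 difference of 1.79 ± 0.20 (SE), and a call in all 8 fits that left out 1 library. In WAT the values were 33.1, 28.6, 18.9 and 8.8 CPM after RYGB and 37.9, 41.5, 43.1 and 74.4 CPM after sham surgery. All RYGB libraries lay below all sham libraries and the log2 difference was −1.20 ± 0.38 (SE). RYGB replicate 4, with the least Atf3, also had the lowest macrophage sum (571 CPM), the lowest adipocyte sum (9780 CPM) and the highest B cell sum (3050 CPM), and sham replicate 4, with the most Atf3, had the highest macrophage sum (2870 CPM). The keratinocyte sum, high in sham replicates 1 to 3, was 6.1 CPM in both of these libraries. The part of these cell types in the result was not tested. The WAT call was lost without RYGB replicate 3 (−1.17) and without sham replicates 1 (−1.31), 2 (−1.26), 3 (−1.25) or 4 (−0.99).

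In the jejunum Atf3 stood at 35.9, 217.4 and 15.8 CPM after RYGB and at 16.8, 18.2, 14.5 and 16.4 CPM after sham surgery. RYGB replicate 2 held most of the difference, and RYGB replicate 3 lay within the sham range. The log2 difference was 1.56 ± 0.67 (SE), not called, and it was 0.51 without RYGB replicate 2, which was the only jejunal library on its lane. Without RYGB replicate 3 it was 2.37 and called. In the ileum RYGB replicate 3 held 65.9 CPM while the other RYGB libraries held 8.0 to 14.6 CPM and the sham libraries 13.7 to 30.5 CPM. Muscle (0.33 ± 0.32) and duodenum (−0.08 ± 0.36) showed log2 differences near 1 standard error or less.

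Ddit3 (ENSMUSG00000025408; chr10:127290774-127296288) encodes CHOP, a transcription factor tied to cell death under prolonged ER stress. Its log2 difference was the largest in liver, 0.43 ± 0.21 (SE), with 5.5, 9.1, 11.6 and 5.9 CPM after RYGB and 6.5, 5.7, 4.9 and 4.8 CPM after sham surgery. RYGB replicates 2 and 3 lay above the sham range and replicates 1 and 4 within it. In the other tissues the log2 difference ran from −0.11 ± 0.25 (SE) in jejunum to 0.35 ± 0.25 (SE) in muscle, and the groups overlapped in all 6 tissues.

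Trib3 (ENSMUSG00000032715; chr2:152337422-152344032, minus strand) encodes a pseudokinase that ATF4 and CHOP induce and that restrains AKT and ATF4 itself. In liver it stood at 9.3, 20.3, 18.2 and 8.2 CPM after RYGB and at 5.4, 5.5, 6.1 and 4.6 CPM after sham surgery. The groups did not overlap, and Trib3 rose by 1.14 ± 0.26 (SE) on the log2 scale, or 2.20-fold. The call was lost without RYGB replicate 3 (0.99) and without sham replicates 1 (1.14), 2 (1.15) or 4 (1.08). In WAT the values were 8.8, 11.3, 7.7 and 6.9 CPM after RYGB and 10.2, 16.2, 21.2 and 16.8 CPM after sham surgery. RYGB replicate 2 lay above sham replicate 1, so the groups overlapped although the gene was called, with a log2 difference of −0.80 ± 0.22 (SE). That call was lost without RYGB replicate 3 (−0.76) and without sham replicates 2 (−0.78), 3 (−0.66) or 4 (−0.77). The B cell, T cell and macrophage sums of WAT also differed between the groups, as given above, and their part was not tested. In the jejunum the RYGB libraries held 33.3, 9.1 and 13.7 CPM and the sham libraries 23.6, 24.1, 23.3 and 33.9 CPM. RYGB replicate 1 lay near the top of the sham range and the other RYGB libraries below it. The log2 difference was −0.64 ± 0.36 (SE), not called, and it was −1.14 and called without RYGB replicate 1. The other differences ran from −0.13 ± 0.30 (SE) in duodenum to 0.23 ± 0.17 (SE) in muscle.

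Asns (ENSMUSG00000029752; chr6:7675169-7693254, minus strand) encodes asparagine synthetase, a classical target of the amino acid branch, and its promoter held the CARE letters nearest to the RefSeq start. Those letters fall within the gene span given here, which is from GENCODE and extends past the RefSeq start. In the jejunum it stood at 12.7, 25.8 and 40.2 CPM after RYGB and at 4.3, 4.1, 4.8 and 6.7 CPM after sham surgery. The groups were well separated, with means of 26.2 ± 13.8 CPM (SD, n = 3) and 4.97 ± 1.19 CPM (SD, n = 4). Asns rose by 2.07 ± 0.34 (SE) on the log2 scale, or 4.20-fold, and was called in all 7 fits that left out 1 library, with differences from 1.70 to 2.50. The RYGB libraries had epithelial sums of 46233, 28563 and 24250 CPM in the same order, and the T cell sum was lower after RYGB as given above. The part of epithelial and T cell content in the result was not tested.

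In liver Asns stood at 16.2, 75.5, 5.6 and 5.2 CPM after RYGB and at 5.2, 10.8, 4.1 and 3.8 CPM after sham surgery. RYGB replicates 3 and 4 lay within the sham range, and replicate 2, the library with the highest neutrophil and macrophage sums, lay far above all others. The log2 difference of 1.23 ± 0.67 (SE) was not called, and it was 0.45 without RYGB replicate 2. The part of neutrophils and macrophages in the liver values was not tested. In the duodenum sham replicates 1 and 2, which carried the acinar marker, held 17.4 and 28.5 CPM while sham replicates 3 and 4 held 6.5 and 6.9 CPM. RYGB replicate 3, with the highest acinar level of its group (517.5 CPM), held 19.3 CPM of Asns, against 13.7 and 9.3 CPM in the other RYGB libraries. The part of acinar content in the duodenal values was not tested. The duodenal log2 difference was 0.12 ± 0.49 (SE). In WAT, which had the highest sham mean (40.1 CPM), the difference was −0.14 ± 0.25 (SE), in ileum 0.33 ± 0.25 (SE) and in muscle 0.06 ± 0.27 (SE).

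**Figure D3:**
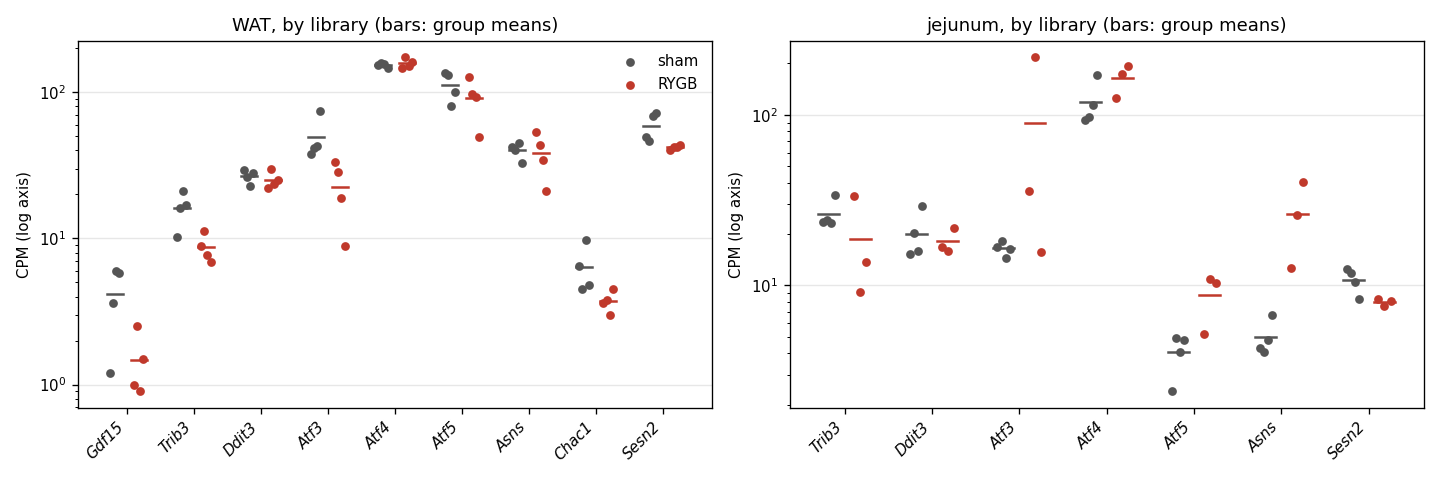
CPM of the listed members in each WAT library (left) and each jejunal library (right) on log axes, sham in grey and RYGB in red, with a bar at each group mean. In WAT the RYGB points lie wholly below the sham points for Atf3 and Sesn2, and in jejunum they lie wholly above them for Atf5 and Asns, while the single Atf3 point at 217.4 CPM is RYGB replicate 2.

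Chac1 (ENSMUSG00000027313; chr2:119351229-119354381) encodes an enzyme that degrades glutathione and is among the strongest responders to ATF4 in cultured cells. In liver it stood at 1.0, 3.5, 3.6 and 4.9 CPM after RYGB and at 2.4, 1.1, 5.1 and 2.5 CPM after sham surgery, with full overlap and a log2 difference of 0.17 ± 0.36 (SE). In muscle it ranged from 13.0 to 78.4 CPM after RYGB and from 5.4 to 63.6 CPM after sham surgery, the widest spread within a group of any member in that tissue. The muscle difference was 0.40 ± 0.69 (SE). In WAT the values were 3.6, 3.8, 3.0 and 4.5 CPM against 6.5, 4.5, 9.8 and 4.8 CPM, and the difference of −0.60 ± 0.22 (SE) was not called, but it was called with median-ratio scaling, at −0.70.

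Sesn2 (ENSMUSG00000028893; chr4:132492032-132510501, minus strand) encodes a leucine sensor that restrains mTORC1. In WAT it stood at 40.2, 42.0, 42.5 and 43.4 CPM after RYGB and at 49.2, 46.3, 68.6 and 71.8 CPM after sham surgery. All RYGB libraries lay below all sham libraries, and the log2 difference of −0.45 ± 0.15 (SE) lay under the 1.5-fold limit and was not called. The part of the cell types whose sums differed in WAT was not tested. In the ileum the values were 10.5, 10.2, 6.0, 9.8 and 9.2 CPM after RYGB and 14.0, 12.7, 12.4, 14.7 and 11.8 CPM after sham surgery. The groups again did not overlap, the difference was −0.50 ± 0.16 (SE), and Sesn2 was the only member with that separation in ileum. No ileal lane held both groups, and lane cannot be told apart from surgery in any ileal result. The ileal T cell and macrophage sums were lower after RYGB too, and their part was not tested. In jejunum the difference was −0.37 ± 0.20 (SE), in muscle −0.20 ± 0.13 (SE), in duodenum −0.03 ± 0.15 (SE) and in liver 0.27 ± 0.25 (SE).

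The sham libraries show the setting in which these differences lie. Levels were compared between genes per kb of exon, and between tissues only as a description, since each table was normalized on its own. In sham liver Atf5 stood at 145 CPM per kb and Atf4 at 51.3 CPM per kb, while Atf3 stood at 0.94 and Fgf21 at 0.92 CPM per kb. WAT had the highest sham mean of Ddit3 (26.6 CPM), Atf3 (49.2 CPM), Asns (40.1 CPM) and Sesn2 (59.0 CPM). Its range did not overlap with the next tissue for Atf3, Asns and Sesn2, and overlapped for Ddit3. Trib3 was highest in jejunum at 26.2 CPM and lowest in muscle at 1.12 CPM, with overlapping neighbours from jejunum through ileum, WAT and duodenum. Chac1 was highest in muscle at 29.5 CPM. Liver had the lowest sham mean of Atf3 (2.02 CPM), apart from all other tissues, and WAT the highest.

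**Figure D4:**
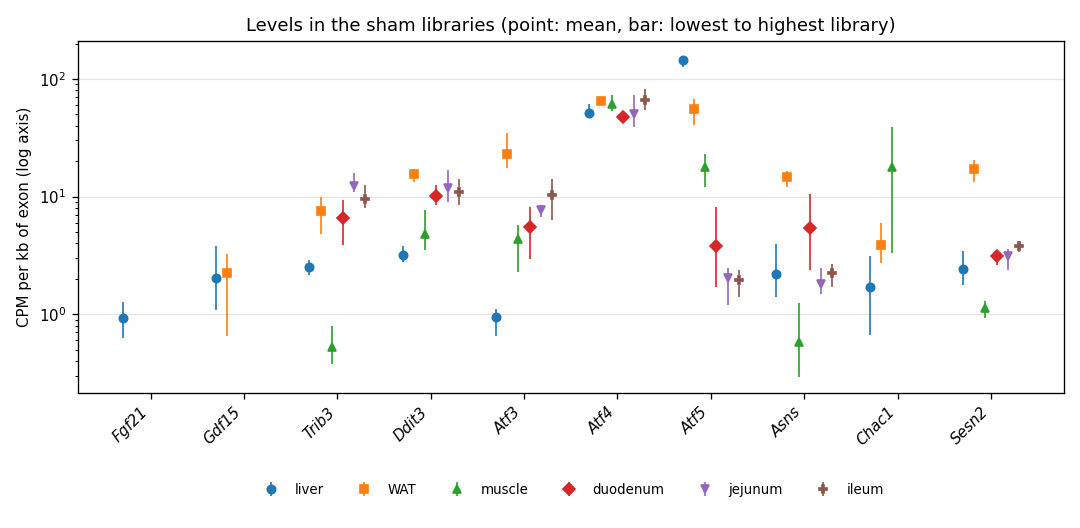
Mean CPM per kb of exon of each member in the sham libraries of each tissue on a log axis, with vertical bars from the lowest to the highest library. Atf4 lies between 47.5 and 66.2 CPM per kb in all tissues, whereas Atf5 runs from 1.96 CPM per kb in ileum to 145 in liver.

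The members did not peak in 1 library. Among the RYGB livers, replicate 2 was highest for Trib3, Atf5, Asns and Sesn2, and replicate 3 for Fgf21, Gdf15, Ddit3 and Atf3. Over all pairs of members, the median Pearson r of their deviations from the group means was 0.37 in liver (45 pairs, 8 libraries), 0.52 in muscle (28 pairs, 8 libraries) and 0.43 in duodenum (21 pairs, 7 libraries). It was 0.08 in WAT (36 pairs), −0.14 in jejunum (21 pairs) and 0.01 in ileum (21 pairs). The points share libraries and their scaling, and these values are a description with no test.

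Other ATF4 target genes, 36 genes of amino acid synthesis, uptake and regulation that are not among the 10 members, were called in liver, WAT, jejunum and ileum. In liver 3 of 29 tested (10.3%) were called higher, beside 5.79% of all genes, and none lower, and the list's median log2 fold change was 0.37 against 0.13 over all genes. They were Slc1a5, a glutamine transporter (10.7 ± 4.22 against 3.30 ± 0.707 CPM, SD, n = 4 each; log2 1.38 ± 0.25 SE, limma adjusted p = 0.0109), Slc7a1, a cationic amino acid transporter (0.92 ± 0.22, limma adjusted p = 0.0311), and Cebpg, a partner of ATF4 (0.68 ± 0.13, limma adjusted p = 0.0144). The Slc7a1 call was lost in 6 of 8 fits that left out 1 library, and 7 liver genes were called without RYGB replicate 1. In the jejunum, beside Asns, 3 of 26 (11.5%) were called higher, beside 4.62% of all genes, and none lower, with a median of 0.12 against −0.04. They were Ddit4, an inhibitor of mTORC1 (30.4 ± 10.9 against 7.03 ± 1.98 CPM, SD; log2 1.94 ± 0.29 SE, limma adjusted p = 0.00373), Slc7a1 (1.70 ± 0.40, limma adjusted p = 0.0276) and the ER oxidase Ero1l (1.21 ± 0.21, limma adjusted p = 0.0072), and 6 genes were called without RYGB replicate 1.

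In WAT, where the members leaned lower, 5 of 36 ATF4 targets (13.9%) were called higher and 4 (11.1%) lower, beside 14.9% and 9.23% of all genes, with a median of −0.09 against 0.11. The cystine transporter Slc7a11 rose the most, from 0.975 ± 0.263 to 23.0 ± 12.9 CPM (SD, n = 4 each; log2 3.47 ± 0.32 SE, limma adjusted p = 0.000241). Mthfd2, a mitochondrial folate enzyme, was also higher (1.30 ± 0.26, limma adjusted p = 0.00728), and Slc1a4 (−0.81 ± 0.19, limma adjusted p = 0.0141) and Ndrg1 (−0.79 ± 0.17, limma adjusted p = 0.00926) were lower. The B and T cell sums given above moved with these differences, and their part was not tested. In the ileum 1 of 27 was called, Ero1l, higher by 0.86 ± 0.20 (SE, limma adjusted p = 0.025), and none was called without RYGB replicate 1 or sham replicates 1, 3 or 4. None of 31 in muscle and none of 26 in duodenum were called, with 3 genes in each at an unadjusted limma p under 0.05. Without sham replicate 4 of the duodenum 2 were called, and without RYGB replicate 4 or sham replicate 3 of muscle 1 was.

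**Figure D5:**
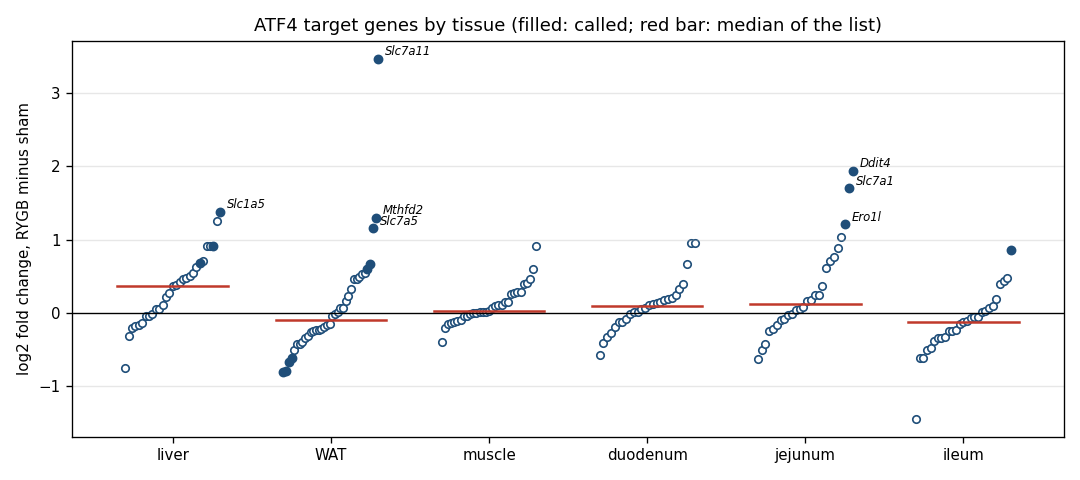
Log2 fold change, RYGB minus sham, of each tested ATF4 target gene outside the 10 members, sorted within each tissue, with filled points for called genes and a red bar at the list's median. The medians run from −0.12 in ileum to 0.37 in liver, and the called genes are 3 in liver, 9 in WAT, 3 in jejunum and 1 in ileum.

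Genes upstream of ATF4 were called at about the rate of all genes in liver and jejunum, 5.0% and 5.26% higher beside 5.79% and 4.62%. Of 20 genes for eIF2, its kinases and its phosphatase, liver had 1 called higher, Impact, an inhibitor of the amino acid sensor GCN2 (0.59 ± 0.15 SE, limma adjusted p = 0.0388, lost in 6 of 8 fits that left out 1 library, while 3 genes were called without RYGB replicate 1). Jejunum had 1, the eIF2 subunit gene Eif2s2 (0.73 ± 0.19 SE, limma adjusted p = 0.0369), which was lost in 5 of 7 such fits, and the other tissues had none. Of 21 genes in the list of aminoacyl-tRNA synthetases, which includes the tRNA exporter gene Xpot, 1 was called in WAT (Vars, 1.60 ± 0.20 SE, limma adjusted p = 0.0011) and 1 in jejunum (Nars, 0.88 ± 0.18 SE, limma adjusted p = 0.017). Each was 4.76% of the list, beside 14.9% of all genes called higher in WAT and 4.62% in jejunum. None was called in jejunum without RYGB replicate 2 or 3, and 4 were with median-ratio scaling. The jejunal median of that list was 0.52 against −0.04 over all genes, and in liver it was 0.16 against 0.13. None of 12 mitochondrial chaperone and protease genes was called in any tissue, with 0 to 3 at an unadjusted limma p under 0.05, although 1 was called in liver without sham replicate 3, in WAT without sham replicate 1, and in jejunum with median-ratio scaling.

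ER chaperones and targets of the IRE1 and ATF6 branches, which also respond to unfolded protein, showed no call among 23 genes in liver. There 5.79% of all genes were called higher and 1.29% lower. At an unadjusted limma p under 0.05 there were 3 of the 23, and the median was 0.00 against 0.13. In jejunum 3 of 22 (13.6%) were called higher, beside 4.62% of all genes, but none without RYGB replicate 2 or sham replicate 1. The called genes included the chaperone gene Hspa5 (725 ± 183 against 386 ± 64.6 CPM, SD; log2 0.89 ± 0.21 SE, limma adjusted p = 0.0295) and the transcription factor gene Xbp1 (0.70 ± 0.15, limma adjusted p = 0.0178). In ileum 3 of 22 (13.6%) were called higher, beside 1.64% of all genes. They were Calr (0.91 ± 0.19 SE, limma adjusted p = 0.0153), Hspa5 and Pdia6. Lane cannot be told apart from surgery in the ileum, as given for Sesn2. The ileal count was 10 with median-ratio scaling, 7 or 6 with RYGB replicate 1 or 3 left out, and 1 when RYGB replicate 2 or sham replicates 1, 4 or 5 were left out. In WAT 1 of 23 (4.35%) was called higher, beside 14.9% of all genes. It was Syvn1 (0.67 ± 0.12 SE, limma adjusted p = 0.00526), which was not called without RYGB replicate 4. The part of ER stress in the members' values was not tested.

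The receptors through which FGF21 acts are FGF receptors paired with beta-Klotho. In liver Fgfr2 was higher, at 48.0 ± 3.86 against 31.1 ± 2.29 CPM (SD, n = 4 each; log2 0.61 ± 0.10 SE, limma adjusted p = 0.00876), a call lost without RYGB replicates 2 or 3 or sham replicate 2 and with median-ratio scaling. In WAT Fgfr1, the main partner of beta-Klotho in fat, was lower, at 184 ± 53.7 against 332 ± 15.6 CPM (log2 −0.91 ± 0.23 SE, limma adjusted p = 0.016), and the call held in all 8 fits that left out 1 library. Klb, the gene of beta-Klotho, named here for its role after its values were seen, stood in WAT at 54.2 ± 29.7 against 67.9 ± 10.8 CPM (SD, n = 4 each; log2 −0.47 ± 0.34 SE, limma adjusted p = 0.297). The adipocyte sum in WAT was 9780 to 20200 CPM after RYGB and 19000 to 27400 CPM after sham surgery, and its part in these values was not tested.

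Fgf21 is also a target of PPARα in fasting and of the sugar sensor ChREBP. In liver 4 of 26 PPARα and fasting genes (15.4%) were called higher and 1 (3.85%) lower, beside 5.79% and 1.29% of all genes. The list's median was 0.47 against 0.13 over all genes. Cpt1a, the gate of fatty acid oxidation, stood at 663 ± 123 against 349 ± 53.5 CPM (SD, n = 4 each; log2 0.92 ± 0.17 SE, limma adjusted p = 0.0117), and Ppargc1a (0.72 ± 0.15, limma adjusted p = 0.0195) and glycerol kinase Gk (0.75 ± 0.12, limma adjusted p = 0.00722) were higher too. Cyp4a12a, a fatty acid hydroxylase with male-biased expression and close paralogs, was lower by a log2 difference of −4.04 ± 0.63 (SE, limma adjusted p = 0.00646). Of 10 ChREBP genes 1 (10.0%) was called in liver, beside 1.29% of all genes called lower. It was Mlxipl, which encodes ChREBP and was lower (−0.60 ± 0.17 SE, limma adjusted p = 0.0485), a call lost in 7 of 8 fits that left out 1 library. In ileum 8 of 24 PPARα and fasting genes (33.3%) were called higher, beside 1.64% of all genes. Lane cannot be told apart from surgery there, as given for Sesn2. In jejunum 5 of 24 (20.8%) were called lower, beside 5.13%. In WAT 1 of 22 (4.55%) was called higher and 3 (13.6%) lower, beside 14.9% and 9.23%. None was called in muscle or duodenum. The list's median was 0.62 against 0.05 over all genes in muscle, and −0.78 against 0.12 in the duodenum. The number of PPARα and fasting genes called in liver was 3 without sham replicates 1, 2 or 4, 8 without RYGB replicate 1, 11 without sham replicate 3, and 10 with lane as a covariate. In ileum it was 4 or 5 without RYGB replicate 2 or sham replicates 1, 3 or 4, in jejunum 2 or 3 without RYGB replicates 2 or 3 or sham replicates 3 or 4, and in WAT 9 without sham replicate 1. The part of PPARα and ChREBP in the Fgf21 values was not tested.

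Atf3 belongs as well to the immediate early genes, which many stimuli and the handling of tissue can induce. In liver 6 of 17 tested genes of that list (35.3%) were called higher, beside 5.79% of all genes, and none lower. The median was 0.65 against 0.13, and the called genes were led by Nr4a1 (1.60 ± 0.23 SE, limma adjusted p = 0.00449) and Klf6 (1.49 ± 0.22 SE, limma adjusted p = 0.0046). Without RYGB replicate 3 the number was 2, and without sham replicates 1 or 4 it was 3. In WAT, where Atf3 was lower, 4 of 22 (18.2%) were called higher and 5 (22.7%) lower, beside 14.9% and 9.23% of all genes. Fos (−1.79 ± 0.38 SE, limma adjusted p = 0.00945) and Dusp1 (−1.22 ± 0.16 SE, limma adjusted p = 0.00119) were among the lower. Among the higher were Egr3 (1.75 ± 0.25 SE, limma adjusted p = 0.00201), Ier5 (1.17 ± 0.25 SE, limma adjusted p = 0.00964) and Socs3 (1.17 ± 0.36 SE, limma adjusted p = 0.0334). Jejunum had 1 called higher and 1 lower of 16 (6.25% each), beside 4.62% and 5.13% of all genes. Ileum had 1 called lower of 15 (6.67%), beside 4.42%, a call lost without RYGB replicate 2 or sham replicates 1, 2 or 3. Of 16 p53 target genes, which share Sesn2 and Gdf15 as known targets, 1 (6.25%) was called higher in liver, beside 5.79% of all genes. It was Gadd45b (1.61 ± 0.15 SE, limma adjusted p = 0.000417). In WAT 3 (18.8%) were called higher and 1 (6.25%) lower, beside 14.9% and 9.23%. In jejunum 1 of 13 was called higher and 1 lower (7.69% each), beside 4.62% and 5.13%, and none was called without RYGB replicate 2 or sham replicate 3. The part of p53 and of tissue handling in the members' values was not tested.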

How the data were processed

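The authors deposited 1 table per tissue of CPM (read counts per gene scaled to a common library total), rounded to 0.1, and the submitters' processing notes name HTSeq and GRCm38. The aligner, annotation and total reads are not given in the sources used here, so depth per library is unknown. In the ileum and jejunum tables, repeated gene lines took the sums of the deposited CPM columns above the scaling total, and 12 broken lines of the liver table, with other values below 0, were left out. Repeated lines were identical and were kept once. The members and gene lists were chosen with earlier results of these data known. Groups were taken from the labels, and each tissue was fitted on its own with limma 3.58.1 (R 4.3.3, empirical Bayes with trend) on log2(CPM + 1), for genes averaging 1 CPM or more, with Benjamini-Hochberg adjustment over all of them. A call needed an adjusted p under 0.05 and a fold change of at least 1.5. P-values measure the spread between these libraries, which may be technical. The fit was tested on simulated data. All members were named in every table that lists them, and of each gene list the called genes, at most 3 in each direction with the largest log2 difference. Alternatives were a pseudocount of 0.1, no filter, a filter at a mean of 10 CPM, median-ratio scaling, lane as covariate, a replicate block and leaving out each library. Lane means the flow cell lane in the labels. Gene positions are from GENCODE (GRCm38) and promoters from RefSeq.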

Additional observations from a re-analysis of the deposited data

Results flagged for a closer look

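In 4 of 82 groups of 4 or 5 libraries, 1 library lay far from the others by Dixon's ratio, the gap to the nearest library over the group's range on log2(CPM + 1), and chance alone would give about 4.1. Trib3 in jejunum sham replicate 4 (ratio 0.911) stood at 33.9 CPM against 23.3 to 24.1 CPM. Atf4 in liver sham replicate 3 (ratio 0.851) stood at 144.1 CPM against 111.1 to 115.5 CPM. Ileum RYGB replicate 3 was marked for both genes, for Atf3 (ratio 0.726), at 65.9 CPM against 8.0 to 14.6 CPM, and for Sesn2 (ratio 0.758), at 6.0 CPM against 9.2 to 10.5 CPM.

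Atf3 moved in opposite directions in liver (1.79) and WAT (−1.20), a gap of 2.99 on the log2 scale, with all RYGB libraries above the sham range in liver and below it in WAT. The difference between the tissues was not tested, since each table was normalized on its own.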

How the results depend on the processing

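No called value of a member or named gene reversed under any alternative that was run. With a mean of at least 10 CPM, Fgf21, Atf3 and Trib3 fell below the filter in liver, so their calls could not be repeated there. The 3 members still tested gave 0 calls, and 1 of 17 ATF4 targets was called. Median-ratio scaling took the all-gene medians to between −0.01 and 0.01 and gave 2 called ATF4 targets in ileum. Leaving out 1 library gave 2 to 4 called members in liver, 0 to 2 in WAT (0 without RYGB replicate 3 or sham replicates 2, 3 or 4), 1 to 3 in jejunum (3 without RYGB replicate 1) and 0 to 0 in muscle, duodenum and ileum. Called ATF4 targets ranged from 2 to 7 in liver (7 without RYGB replicate 1), 6 to 10 in WAT, 0 to 1 in muscle, 0 to 2 in duodenum, 2 to 6 in jejunum (6 without RYGB replicate 1) and 0 to 2 in ileum.

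Same-numbered libraries deviated with correlations from −0.281 to 0.389, in no tissue all above 0.1, so the numbers were not taken to pair mice. In liver 6 of 8 libraries correlated best with their own number, elsewhere 0 to 5. With the replicate block 5 members were called in liver (Gdf15 and Atf5 added), 1 in WAT (Trib3, the Atf3 call being lost), 1 in muscle (Atf5) and 2 in jejunum (Atf5 added), and 7 ATF4 targets in liver, 1 in muscle and 2 in ileum. Lane as covariate was not run in duodenum (1 lane) or ileum (no lane with both groups). In WAT it called Atf3 (−1.48) and Atf5 and not Trib3. Depth was unknown, so low values such as Fgf21 in sham liver carry an unknown counting error.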
